A study of Homo sapiens with 8 samples.

Results

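The 43 genes described here encode the machinery that builds, transfers and trims the N-linked glycan. They were taken by gene symbol from both deposited count tables, which list 60664 genes, and all 43 were found and passed the filter on low counts in every comparison. They fall into 4 lists: 12 subunits of the oligosaccharyltransferase, 14 ALG enzymes that assemble the lipid-linked oligosaccharide, 7 genes of dolichol and dolichol-phosphate-mannose supply, and 10 enzymes that trim the glycan or extend the trimmed form. The RNAs were measured by APEX-seq in HEK293T, a transformed line from human embryonic kidney. In APEX-seq the peroxidase APEX2 tags RNA around it with biotin in living cells, and tagged RNA is then pulled down on streptavidin and sequenced. APEX2 sat at the outer mitochondrial membrane (OMM) or in the nucleus (NLS), and each compartment had 2 labelled libraries and 2 unlabelled control libraries.

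All 4 groups were HEK293T cells expressing APEX2 and grown in the same medium. The groups were OMM labelled, OMM control, NLS labelled and NLS control. The OMM libraries were made with a TruSeq stranded mRNA kit and the NLS libraries with a SMARTer stranded total RNA kit, titled ribominus, so the compartment and the kit cannot be told apart. The controls hold RNA that came through the procedure without labelling and not the RNA of whole cells. The sources used here do not say what drives APEX2 or whether a line was 1 clone. Nor do they say if replicate libraries trace to separate cultures, so every p-value rests on a spread that may be purely technical. Libraries are named by the numbers in the column headers, which run 2 and 3 for OMM labelled, 3 and 4 for OMM control, and 1 and 3 for both NLS groups.

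N-glycosylation starts at the endoplasmic reticulum (ER). A glycan is built sugar by sugar on the lipid dolichol, first on the cytosolic face and then in the lumen, and the oligosaccharyltransferase moves it as a block to asparagines of proteins entering the ER. STT3A and STT3B are alternative catalytic subunits: the complex with STT3A sits at the translocon and works as the protein enters, and the complex with STT3B, which carries MAGT1 or TUSC3, also modifies sites that were missed. Most of the 43 products are membrane or lumenal proteins of the ER or Golgi, so their mRNAs are for the most part translated at the ER.

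Sequences are shown for the members whose identity or size bears on the measurement. ALG10 (chr12:34022281-34029694, plus strand) and ALG10B (chr12:38316578-38329728, plus strand) encode near-identical glucosyltransferases, which add the last glucose to the lipid-linked glycan. Over their 1422 coding bases, stop codon included, 33 differed (97.68% identity), and the longest stretch without a difference ran to 148 bases. A short read from such a stretch does not tell the 2 genes apart, so their separate levels are uncertain. The first 90 coding bases hold 4 differences and coding bases 1270 to 1359 hold 6, and capitals mark the differing bases.
ALG10, coding bases 1 to 90: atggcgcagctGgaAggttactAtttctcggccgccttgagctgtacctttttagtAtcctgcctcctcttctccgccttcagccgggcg
ALG10B, coding bases 1 to 90: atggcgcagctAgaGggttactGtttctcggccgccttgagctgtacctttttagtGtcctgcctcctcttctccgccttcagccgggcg
ALG10, coding bases 1270 to 1359: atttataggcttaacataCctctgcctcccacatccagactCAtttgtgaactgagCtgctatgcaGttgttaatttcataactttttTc
ALG10B, coding bases 1270 to 1359: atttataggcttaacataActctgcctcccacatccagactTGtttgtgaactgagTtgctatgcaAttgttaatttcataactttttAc

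OST4, a small membrane subunit that binds the catalytic subunit, has the shortest reading frame of the 43 (chr2:27070472-27071773, minus strand). Its whole coding sequence is 114 bases with the stop codon, or 37 codons, against 705 codons in STT3A and 826 in STT3B. Capitals mark the start and stop codons. Sequences, coordinates and coding lengths are from GENCODE 29 on GRCh38.
OST4, coding bases 1 to 114: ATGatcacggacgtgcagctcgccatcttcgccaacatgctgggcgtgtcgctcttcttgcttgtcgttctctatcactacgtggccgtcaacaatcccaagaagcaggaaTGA

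Libraries held 34705126 to 52421161 counts at OMM, 8039176 to 9531568 counts in NLS labelled and 20746393 to 21096586 in NLS control. The lowest count of a member in any library was 49, so no member was at 0. Replicates differed more at OMM. The median gap between the 2 libraries of a group, over the 43 members and on the log2 scale, was 0.46 in OMM labelled, 0.31 in OMM control, 0.11 in NLS labelled and 0.14 in NLS control. At OMM, 4 members in the labelled pair and 7 in the control pair differed by more than 2-fold between libraries, against 0 in both NLS groups. Of 6 HEK293T markers, 5 were found in every library and PAX2 was at 0 in 2 OMM libraries. Their summed level in CPM (counts scaled to library size and TMM factor) ran from 714 to 762 in OMM labelled and 628 to 725 in OMM control. It was 230.2 to 269 in NLS labelled and 834 to 855 in NLS control. Markers of 5 other cell types summed to at most 26.5 CPM, nearly all from COL1A1. The nuclear RNAs NEAT1 and MALAT1 summed to 6513 and 7697 CPM in NLS labelled against 1215 and 1283 CPM in NLS control. Their sum was 29.4 and 46.1 CPM in OMM labelled against 107 and 33.7 CPM in OMM control. The 13 mRNAs of mitochondrial DNA summed to 10813 and 14764 CPM in OMM labelled against 71119 and 39381 CPM in OMM control. These mRNAs summed to 5773 and 5469 CPM in NLS labelled against 45718 and 33592 CPM in NLS control. All levels here and below are CPM scaled by TMM factors, and every fold change is labelled over control in log2 units.

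At OMM 8 of the 12 oligosaccharyltransferase subunits had a fold change above 0 and 4 below, and 1 passed the test. STT3B, the catalytic subunit of the post-translational complex (chr3:31532638-31637622, plus strand), was the single member of the 43 to pass the test. It had 405 and 416 CPM in OMM labelled, against 141 and 144 CPM in OMM control. Both labelled libraries stood far above both controls, a log2 fold change of 1.53 ± 0.20 (SE, n = 2 each, edgeR quasi-likelihood test, adjusted p = 0.0384), or 2.88-fold. Over all 14438 genes tested at OMM, 0.139% were called higher and 0.0554% lower (0.16% and 0.048% of protein-coding genes), so STT3B is 1 of 20 higher calls. STT3B stayed past the threshold in all 9 alternative fits, which leave out each library in turn or change the scaling, filter or tool, with log2 fold changes from 1.51 to 1.61 and adjusted p from 5.71e-27 to 0.0365.

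MAGT1, the thiol oxidoreductase subunit that works with STT3B, had 779 and 567 CPM in OMM labelled, against 270.4 and 243 CPM in OMM control. Its groups did not overlap, and its log2 fold change was 1.39 ± 0.22 with an adjusted p of 0.0590. It missed the threshold in this fit and passed in 8 of 9 alternatives (adjusted p from 9.38e-10 to 0.0595). TUSC3, the paralogue that can take the place of MAGT1, had 27.2 and 58.8 CPM in OMM labelled, against 50.7 and 28.7 CPM in OMM control. Its groups overlapped fully, and its log2 fold change was 0.11 ± 0.53.

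STT3A, the catalytic subunit of the translocon complex (chr11:125591712-125625215, plus strand), had 385 and 233 CPM in OMM labelled, against 227 and 231 CPM in OMM control. Labelled library 2 was well above the controls and labelled library 3 was level with them, which gave a log2 fold change of 0.43 ± 0.27 (adjusted p = 0.625). RPN1, a membrane subunit shared by both complexes, had 653 and 498 CPM in OMM labelled, against 296 and 299 CPM in OMM control. Its labelled libraries were both higher, at a log2 fold change of 0.95 ± 0.21 (adjusted p = 0.146). RPN2, another shared subunit, had 523 and 347 CPM in OMM labelled against 359 and 300.1 CPM in OMM control, and its groups overlapped (0.40 ± 0.25 log2). DDOST, also shared, had 563 and 344 CPM in OMM labelled against 333 and 309.9 CPM in OMM control, at 0.50 ± 0.26 log2 with no overlap.

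Of the 5 small subunits, 3 had both labelled libraries below both controls. DAD1, a small shared membrane subunit, had 42.3 and 65.4 CPM in OMM labelled, against 107 and 97.6 CPM in OMM control (log2 fold change -0.93 ± 0.35, adjusted p = 0.384). KRTCAP2, a small subunit of the STT3A complex, had 50.6 and 67.7 CPM in OMM labelled, against 106 and 102 CPM in OMM control (-0.81 ± 0.32 log2, adjusted p = 0.410). Both were lower in each labelled library than in each control, and neither passed the test. OST4, whose sequence is given above, had 75.9 and 72.8 CPM in OMM labelled against 96.7 and 77.7 CPM in OMM control, a log2 fold change of -0.23 ± 0.31. OSTC and TMEM258, the other small subunits, had overlapping groups.

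Over the 12 subunits the median log2 fold change at OMM was 0.31 (0.056 to 0.58 on leaving out 1 library), with 8 above 0, against -0.00 over all tested genes, of which 49.9% were above 0. Groups did not overlap for 8 subunits, 5 higher (STT3A, STT3B, RPN1, DDOST and MAGT1) and 3 lower (DAD1, OST4 and KRTCAP2). That is 41.7% and 25% of the subunits. Over all tested genes, both labelled libraries were above both controls for 21.3% and below both for 22.5%, so the lower share is near that of all genes. The summed level of the 7 subunits with coding sequences of 1000 bases and over was 3334 and 2465 CPM in OMM labelled, against 1676 and 1556 CPM in OMM control. For the 5 subunits under 500 bases the sum was 378 and 358 CPM in OMM labelled, against 518 and 424 CPM in OMM control.

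**Figure D1:**
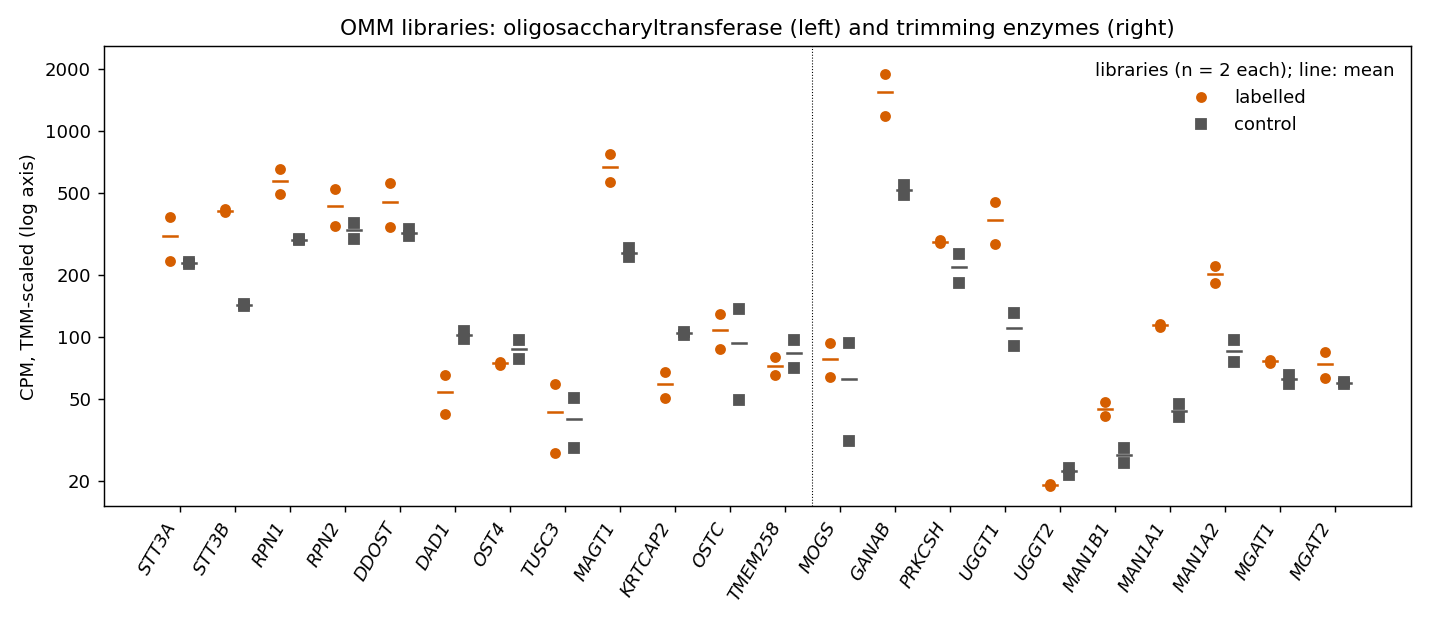
Levels in CPM (TMM-scaled, log axis) of the 12 oligosaccharyltransferase subunits and the 10 trimming enzymes in the 2 OMM labelled and 2 OMM control libraries; points are libraries and lines group means. STT3B, MAGT1, GANAB and UGGT1 have both labelled libraries well above both controls, and DAD1 and KRTCAP2 have both below.

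Among the trimming enzymes, 9 of 10 had a fold change above 0 at OMM and 8 had both labelled libraries above both controls. None passed the adjusted threshold and 4 were higher at an unadjusted p under 0.05. Over all genes tested at OMM, 49.9% were above 0 and 21.3% had both labelled libraries above both controls. An unadjusted p under 0.05 with a higher level was found for 5.94% of them. GANAB, the catalytic subunit of glucosidase II, which removes the inner glucoses in the ER, was the most abundant of the 10. It had 1901 and 1191 CPM in OMM labelled, against 491 and 550.0 CPM in OMM control. The labelled libraries differed from each other yet both stood far above the controls, and the log2 fold change of 1.57 ± 0.24 had an adjusted p of 0.0552. PRKCSH, the regulatory subunit of the same glucosidase, had 297 and 285 CPM in OMM labelled, against 184 and 254 CPM in OMM control (0.41 ± 0.23 log2).

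UGGT1, the folding sensor that puts a glucose back on unfolded glycoproteins, had 453 and 284 CPM in OMM labelled, against 90.6 and 131 CPM in OMM control. This was the highest log2 fold change of the 43 at OMM, 1.73 ± 0.30, with an adjusted p of 0.0845. UGGT2, its paralogue, had 18.8 and 19.2 CPM in OMM labelled against 23.1 and 21.4 CPM in OMM control, and was the only trimming enzyme below 0 (-0.23 ± 0.57 log2). MAN1A1, a mannosidase of the Golgi, had 116 and 111 CPM in OMM labelled against 47.0 and 40.6 CPM in OMM control (1.38 ± 0.32 log2). Its paralogue MAN1A2 had 182 and 222 CPM in OMM labelled against 75.6 and 96.2 CPM in OMM control (1.24 ± 0.27 log2). Both mannosidases were clear of their controls, with adjusted p of 0.150 and 0.143.

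MGAT1 and MGAT2 add the N-acetylglucosamines that turn the trimmed glycan into a hybrid or complex one in the Golgi. MGAT1 had 77.6 and 74.9 CPM in OMM labelled against 59.3 and 65.2 CPM in OMM control, and MGAT2 had 84.9 and 63.0 CPM in OMM labelled against 60.1 and 58.7 CPM in OMM control. Neither log2 fold change, 0.29 ± 0.32 and 0.31 ± 0.34, was larger than its error. The median over the 10 trimming enzymes was 0.58. MGAT2 shares 91.89% of its exonic length with an antisense RNA, and the strand setting of the counting is not given in the sources used here, so its reads may include that RNA.

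The 14 ALG enzymes had a median log2 fold change of 0.51 at OMM (0.38 to 0.84 on leaving out 1 library), with 12 of them above 0. Of these enzymes 0 passed the threshold, 4 were higher at an unadjusted p under 0.05 and 7 overlapped between groups. Both labelled libraries were above both controls for 6 and below both for 1, against 21.3% and 22.5% of all genes tested. Of all genes, 49.9% were above 0 and 5.94% were higher at an unadjusted p under 0.05. ALG10B had 64.4 and 94.0 CPM in OMM labelled, against 28.3 and 23.5 CPM in OMM control (1.61 ± 0.41 log2, adjusted p = 0.197). Its near-identical copy ALG10 had 12.0 and 25.1 CPM in OMM labelled against 9.36 and 13 CPM in OMM control, which overlap (0.73 ± 0.79 log2). ALG9, a lumenal mannosyltransferase, had 63.5 and 40.0 CPM in OMM labelled against 17.3 and 22.8 CPM in OMM control, at 1.37 ± 0.48 log2 (adjusted p = 0.343). ALG9 shares 24.39% of its exonic length with another gene on the same strand, so its counts may include reads of that gene. At the other end, ALG14, which anchors the transferase for the second N-acetylglucosamine to the membrane, had 14.0 and 12.7 CPM in OMM labelled against 24.1 and 33.8 CPM in OMM control (-1.12 ± 0.58 log2). ALG12, which adds a mannose in the lumen, had 22.3 and 14.7 CPM in OMM labelled. Its controls, at 35.3 and 3.36 CPM, differed from each other by more than its groups did, and its log2 fold change of -0.06 ± 0.98 becomes 2.46 without OMM control 3.

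The dolichol list ran the other way, with a median of -0.60, 2 of 7 above 0 and 0 past the threshold. Over all genes tested at OMM the median was -0.00 and 49.9% were above 0. NUS1, the partner of the prenyltransferase that makes the dolichol chain, had 113 and 183 CPM in OMM labelled against 82.2 and 73.4 CPM in OMM control (0.93 ± 0.32 log2, adjusted p = 0.335). DOLPP1, which recycles dolichol pyrophosphate, had 70.0 and 59.8 CPM in OMM labelled, inside the span of 46.4 and 78.2 CPM in OMM control. DPM3, which tethers dolichol-phosphate-mannose synthase to the ER, had 5.10 and 10.2 CPM in OMM labelled against 26.9 and 12.1 CPM in OMM control (-1.35 ± 0.88 log2). DPM1, the catalytic subunit of that synthase, had 6.08 and 50.5 CPM in OMM labelled against 66.1 and 64.5 CPM in OMM control (-1.21 ± 0.81 log2). Here a single labelled library carries the difference, since labelled library 3 lies close to the controls.

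Over all 43 members at OMM the median log2 fold change was 0.39 and 31 were above 0. Without adjustment, 12 members had p under 0.05 with a higher level and 2 with a lower one, against 5.94% and 4.62% of all genes tested. The adjusted count of 1 higher and 0 lower depended on the fit. The number of members called higher rose whichever OMM library was left out, and so did the number over all genes. DESeq2 called 12 members higher and 2 lower, where it called 949 and 888 of the 14438 genes tested. In the authors' deposited table, 12 members were higher at OMM at an adjusted p under 0.05 (ALG9, ALG6, GANAB, MAGT1, MAN1A1, UGGT1, NUS1, STT3B, RPN1, ALG10B, MAN1A2 and ALG11). The same deposited table of the authors has 2 members lower, DAD1 and KRTCAP2, beside 6.53% higher and 5.7% lower over its 15314 genes with a p-value.

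The change at OMM ran with the length of the coding sequence. Over the 43 members, the log2 fold change at OMM and the log10 coding length had Pearson's r = 0.608 and Spearman's rho = 0.658, against 0.0963 and 0.166 over 12490 tested protein-coding genes. This is a description across genes of the same 4 libraries, and genes are not independent replicates. The length classes were chosen after the values were seen. The 7 members under 500 bases (DAD1, OST4, KRTCAP2, OSTC, TMEM258, DPM2 and DPM3) had a median of -0.23 with 1 above 0, and the 6 members from 500 to under 1000 bases had a median of -0.28 with 3 above 0. The 22 members from 1000 to under 2000 bases had a median of 0.47 with 20 above 0, and the 8 members of 2000 bases and over had a median of 0.66 with 7 above 0. All protein-coding genes in these 4 classes, shortest to longest, had medians of -0.32, -0.12, 0.05 and 0.19, and 33.9%, 44%, 52.6% and 60.3% were above 0. UGGT2, at 4548 coding bases, was at -0.23 ± 0.57, and NUS1, at 879 coding bases, was at 0.93 ± 0.32, and neither passed the test. At NLS the relation over the 43 members was weaker, with r = 0.359 and rho = 0.270 against 0.205 and 0.277 over protein-coding genes. The part of coding length in the values of large and small subunits was not tested.

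**Figure D2:**
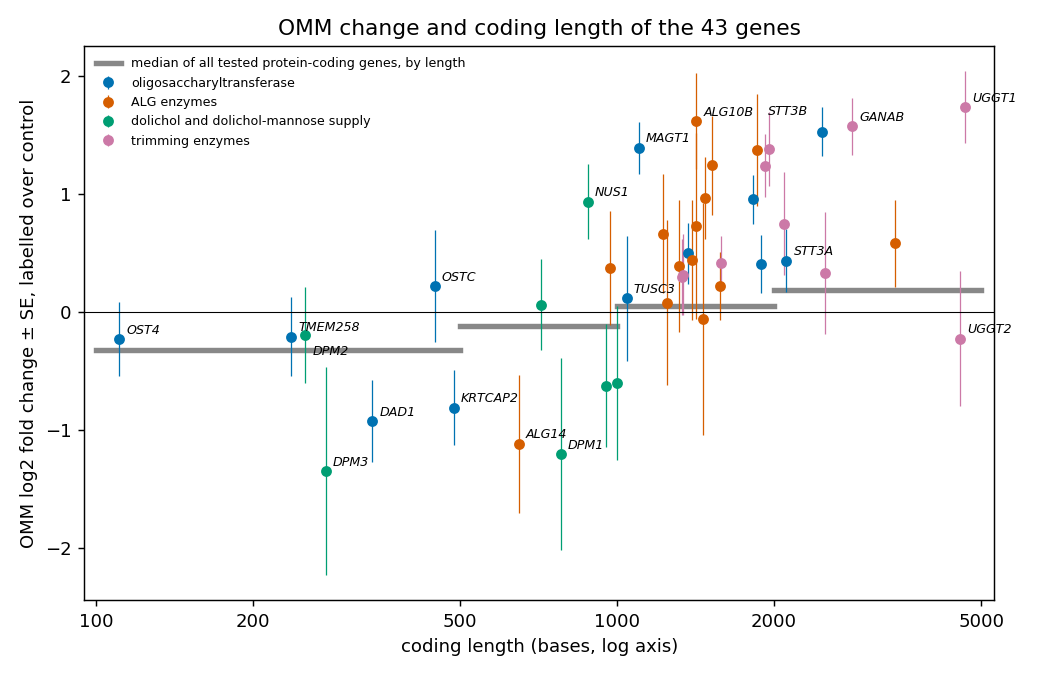
Log2 fold change at OMM (labelled over control, bars SE, n = 2 each) of the 43 genes against coding length in bases on a log axis, coloured by list; grey bars are medians of all tested protein-coding genes in 4 length classes. Members under 500 bases have a median of -0.23 and those of 2000 bases and over 0.66.

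In the nucleus all 12 subunits of the oligosaccharyltransferase fell in NLS labelled. Their median log2 fold change was -1.39, from -2.41 to -0.48, where all 20858 genes tested had a median of 0.14 and 13856 protein-coding genes one of -0.26. With library sizes alone in place of TMM the median of all genes moves to 0.66, the median of the subunits to -0.87, and TUSC3 to 0.040. Among the subunits with values given below, TUSC3 and KRTCAP2 do not pass at that setting. OSTC and TMEM258 were not followed singly there, so further subunits may have been lost. Over all lists, 22 of the 33 called members stayed called. Of all genes tested, 28.5% were called lower and 28.8% higher, and of protein-coding genes 39.8% and 19.4%. The summed level of the 12 subunits was 733 and 707 CPM in NLS labelled, against 1849 and 1851 CPM in NLS control. As in any bulk library these are shares of the sequenced RNA, here RNA from the pull-down. A lower share does not give the amount of an RNA per cell, nor the number of cells behind it.

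DAD1 was the lowest of the 43, with 18.7 and 18.5 CPM in NLS labelled against 97.6 and 99.7 CPM in NLS control (log2 fold change -2.41 ± 0.12, adjusted p = 1.82e-05). OST4 followed, with 21.4 and 16.4 CPM in NLS labelled against 63.1 and 71.8 CPM in NLS control (-1.83 ± 0.17 log2). RPN1 had 109.8 and 85.2 CPM in NLS labelled against 278 and 316 CPM in NLS control (-1.61 ± 0.14 log2). RPN2 had 94.2 and 87.3 CPM in NLS labelled against 258 and 247 CPM in NLS control (-1.48 ± 0.10 log2). In each of these 4 the labelled libraries lay far below both controls.

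STT3A had 92.5 and 94.4 CPM in NLS labelled against 237 and 226 CPM in NLS control (-1.31 ± 0.09 log2), and DDOST had 71.5 and 59.5 CPM in NLS labelled against 159 and 161 CPM in NLS control (-1.28 ± 0.12 log2). STT3B had 147 and 159.7 CPM in NLS labelled against 341 and 301 CPM in NLS control (-1.07 ± 0.10 log2, adjusted p = 8.88e-05), a gap many times its error. MAGT1 had 70.8 and 76.5 CPM in NLS labelled against 224 and 195 CPM in NLS control (-1.51 ± 0.11 log2). KRTCAP2 had 33.1 and 35.0 CPM in NLS labelled against 55.4 and 61.7 CPM in NLS control (-0.78 ± 0.13 log2), and did not pass with library sizes alone (-0.26, adjusted p = 0.109). The least lowered was TUSC3, with 32.9 and 31.5 CPM in NLS labelled against 43.8 and 46.0 CPM in NLS control (-0.48 ± 0.13 log2, adjusted p = 0.0145). TUSC3 passed in 6 of 10 alternatives, and not with library sizes alone, DESeq2 (adjusted p = 0.0629), without NLS labelled 1 (adjusted p = 0.0909) or without NLS labelled 3 (adjusted p = 0.157).

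In the nucleus 7 of 10 trimming enzymes fell, 2 rose and MOGS, the glucosidase that removes the outermost glucose, did not pass. That is 70% lower and 20% higher, against 39.8% and 19.4% of protein-coding genes and 28.5% and 28.8% of all genes tested. The higher share is thus near that of protein-coding genes. GANAB had 137 and 118 CPM in NLS labelled against 400.4 and 404 CPM in NLS control (-1.65 ± 0.10 log2, adjusted p = 2.00e-05), and PRKCSH had 127 and 98.1 CPM in NLS labelled against 262 and 299.7 CPM in NLS control (-1.31 ± 0.14 log2). Both subunits of glucosidase II were thus under their controls in each library. MGAT2 had 22.2 and 19.0 CPM in NLS labelled against 61.9 and 60.6 CPM in NLS control (-1.57 ± 0.14 log2). UGGT1 had 144 and 142 CPM in NLS labelled against 204 and 211 CPM in NLS control (-0.54 ± 0.09 log2). With library sizes alone UGGT1 was at -0.018 and did not pass (adjusted p = 0.872, the highest of its 10 alternatives, the lowest being 4.97e-05). UGGT2 stood opposite its paralogue, with 93.8 and 107 CPM in NLS labelled against 43.4 and 43.6 CPM in NLS control, the highest log2 fold change of the 43 in the nucleus (1.21 ± 0.12, adjusted p = 8.34e-05).

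MAN1B1, the mannosidase that marks slowly folding glycoproteins for degradation, also rose, with 109 and 102 CPM in NLS labelled against 48.5 and 51.3 CPM in NLS control (1.08 ± 0.11 log2). The Golgi mannosidase MAN1A1 had 49.7 and 47.4 CPM in NLS labelled against 83.6 and 70.6 CPM in NLS control (-0.67 ± 0.13 log2), but -0.15 with library sizes alone, where it did not pass (adjusted p = 0.357, against a lowest of 3.63e-07 over its 10 alternatives). MAN1A2 had 165 and 152 CPM in NLS labelled against 213 and 217 CPM in NLS control, a log2 fold change of -0.44 ± 0.09 with TMM factors that turns to 0.075 with library sizes alone (adjusted p = 0.507). The median over the list was -0.58, and -0.062 with library sizes alone.

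The ALG enzymes did not move together in the nucleus: 4 rose (ALG13, ALG11, ALG8 and ALG5), 3 fell (DPAGT1, ALG3 and ALG10B) and 7 did not pass. Of the 14 that is 28.6% higher and 21.4% lower, near the 28.8% and 28.5% of all genes tested. Their median of -0.07 sits between the all-gene median of 0.14 and the protein-coding one of -0.26, and turns to 0.45 with library sizes alone and to 0.090 without NLS labelled 1. ALG5, which makes the dolichol-phosphate-glucose donor, had 73.9 and 73.3 CPM in NLS labelled against 37.4 and 38.3 CPM in NLS control (0.96 ± 0.11 log2, adjusted p = 2.32e-04). ALG13, the catalytic partner of ALG14, had 185 and 199.6 CPM in NLS labelled against 114 and 107 CPM in NLS control (0.80 ± 0.10 log2). Both had each labelled library above each control.

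ALG3, the lumenal transferase that starts the mannose branch inside the ER, had 20.3 and 16.4 CPM in NLS labelled against 46.6 and 47.4 CPM in NLS control (-1.35 ± 0.16 log2). DPAGT1, the enzyme of the committed step and the target of tunicamycin, had 18.8 and 18.6 CPM in NLS labelled against 35.0 and 26.4 CPM in NLS control (-0.71 ± 0.19 log2, adjusted p = 0.0127). DPAGT1 did not pass with library sizes alone (-0.20, adjusted p = 0.401), without NLS labelled 1 (adjusted p = 0.0722) or without NLS labelled 3 (adjusted p = 0.0865), and passed in the other 7 alternatives, down to 1.19e-06. ALG10B had 35.8 and 42.9 CPM in NLS labelled against 55.1 and 53.0 CPM in NLS control, -0.46 ± 0.14 log2 with TMM factors and 0.059 with library sizes alone. ALG10B passed in 7 of 10 alternatives, the exceptions being that scaling, DESeq2 (adjusted p = 0.0656) and the fit without NLS labelled 1 (adjusted p = 0.246). ALG10, at 26.5 and 30.0 CPM in NLS labelled against 41.0 and 30.8 CPM in NLS control, did not pass (adjusted p = 0.132). ALG11 shares 39.67% of its exonic length with UTP14C on the same strand, so its counts may include reads of that gene.

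Of the 7 dolichol genes, 4 fell in the nucleus (NUS1, SRD5A3, DOLPP1 and DPM3) and DHDDS rose. That is 57.1% lower and 14.3% higher, against 39.8% and 19.4% of protein-coding genes and 28.5% and 28.8% of all genes tested. DHDDS and NUS1 form 1 enzyme, the prenyltransferase of dolichol synthesis, yet their mRNAs stood on opposite sides. DHDDS had 50.9 and 55.4 CPM in NLS labelled against 29.4 and 31.5 CPM in NLS control (0.80 ± 0.13 log2, adjusted p = 0.00126). NUS1 had 53.9 and 54.1 CPM in NLS labelled against 151 and 172 CPM in NLS control (-1.58 ± 0.11 log2, adjusted p = 2.49e-05). DPM3 had 4.95 and 5.09 CPM in NLS labelled against 12.9 and 15.4 CPM in NLS control (-1.49 ± 0.26 log2), and DPM1, with 62.8 and 87.1 CPM in NLS labelled against 49.2 and 63.7 CPM in NLS control, did not pass (adjusted p = 0.0925). The median over the list was -0.78, and -0.26 with library sizes alone.

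Over the 43 members, 26 fell and 7 rose in the nucleus, or 60.5% and 16.3%, against 28.5% and 28.8% of all genes tested and 39.8% and 19.4% of protein-coding genes. Both labelled libraries were below both controls for 31 and above both for 8, against 37.7% and 45.1% of all genes tested. The authors' deposited table has 24 members lower and 7 higher at NLS at an adjusted p under 0.05, beside 20.2% and 22.1% of its 25516 genes with a p-value.

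**Figure D3:**
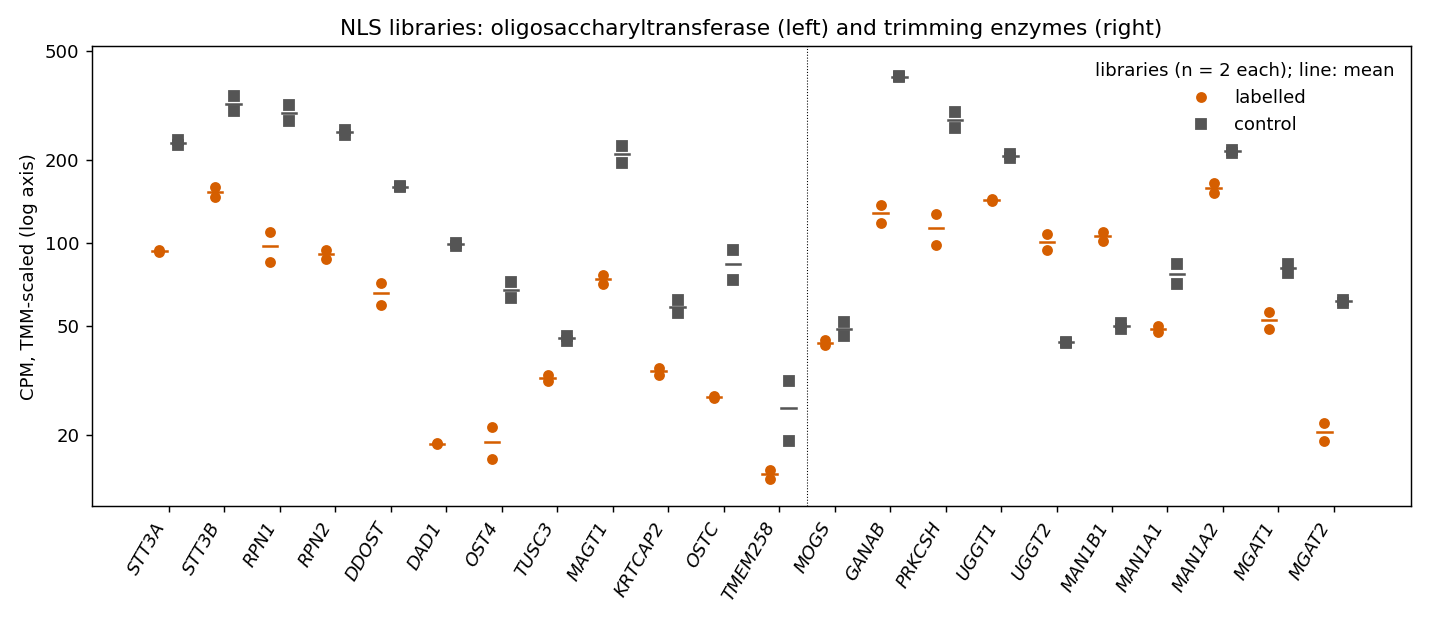
Levels in CPM (TMM-scaled, log axis) of the 12 oligosaccharyltransferase subunits and the 10 trimming enzymes in the 2 NLS labelled and 2 NLS control libraries; points are libraries and lines group means. All 12 subunits have both labelled libraries below both controls, and UGGT2 and MAN1B1 have both above.

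**Figure D4:**
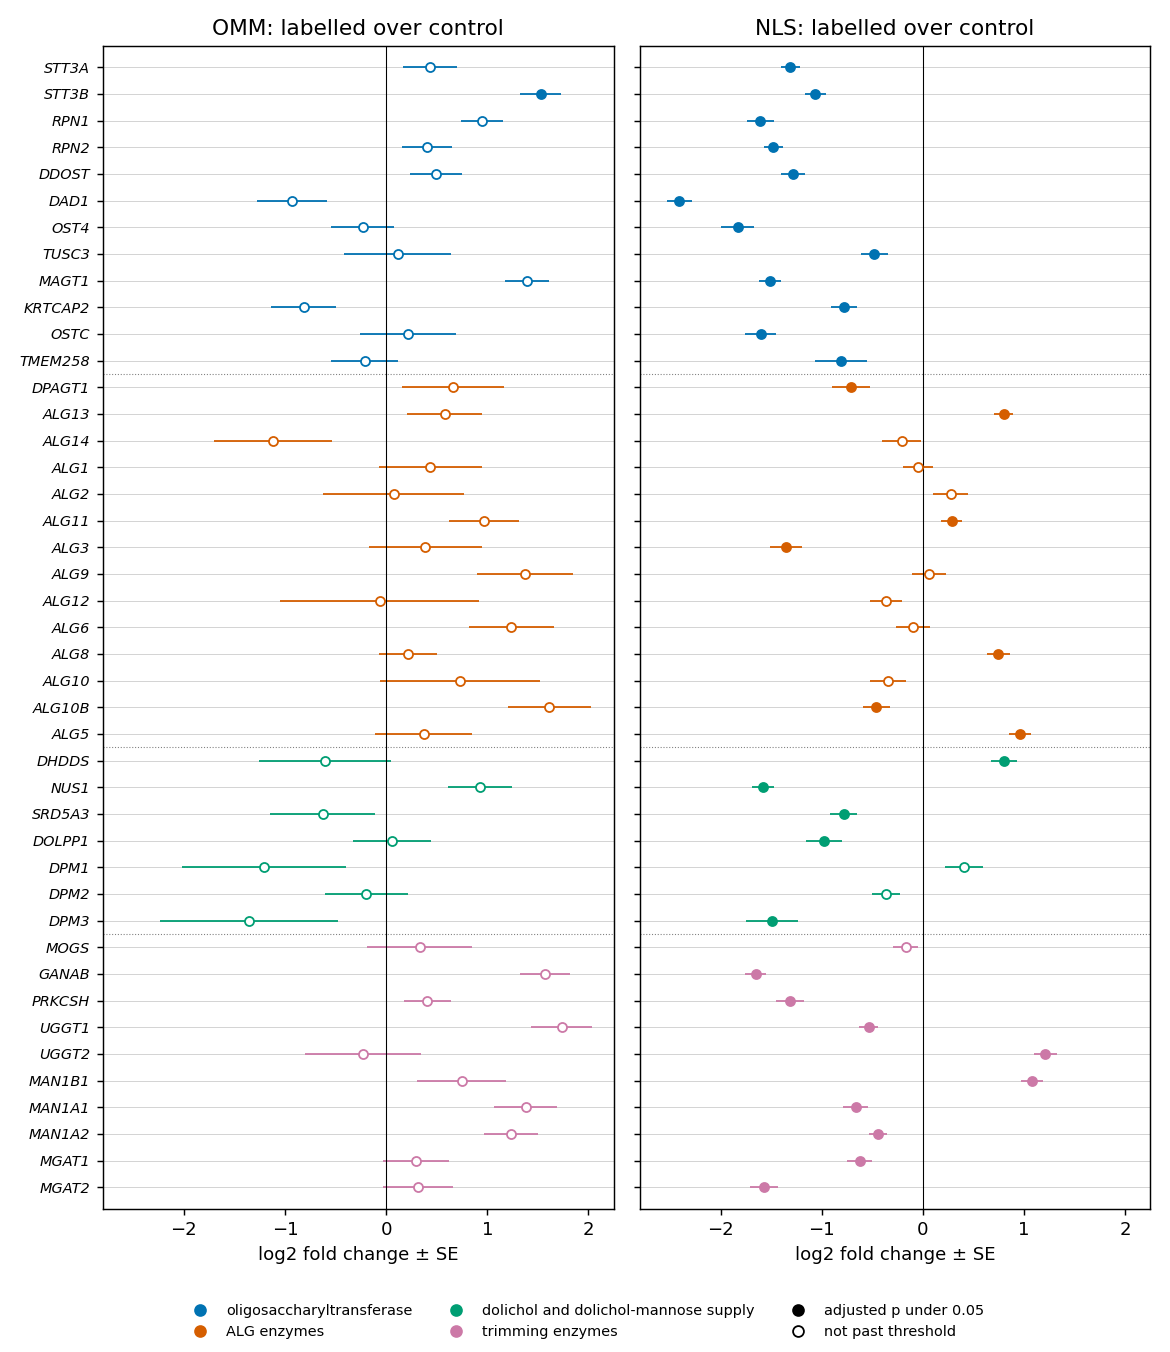
Log2 fold change ± SE (labelled over control, n = 2 each) of the 43 genes at OMM on the left and NLS on the right, by list from top to bottom; filled points passed an adjusted p of 0.05. STT3B is the single filled point at OMM, and all 12 oligosaccharyltransferase subunits are filled and below 0 at NLS.

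The difference between compartments, the log2 fold change at OMM minus that at NLS, was tested with an interaction term over all 8 libraries. It passed for 16 members on the OMM side and 1 on the NLS side, where 6.73% and 1.41% of 23178 genes passed (10.5% and 1.49% of protein-coding genes). At an unadjusted p under 0.05 it was 22 and 2 members, where 15.3% and 7.75% of all genes passed. By list, 8 of 12 oligosaccharyltransferase subunits, 6 of 10 trimming enzymes, 1 of 14 ALG enzymes and 1 of 7 dolichol genes passed on the OMM side. The medians of the difference were 1.79, 1.73, 0.60 and 0.19 in that order, against -0.11 over all genes tested and 0.40 over protein-coding genes. The count depended on the fit. It fell whichever NLS library was left out, furthest without either NLS control, and so did the count over all genes. In those fits 42 or 43 members kept the sign of their difference. With DESeq2 size factors 9 members passed on the OMM side, and 7 with library sizes alone. With each compartment keeping its own spread 17 passed on the OMM side, of which 16 were among the 17 called members, and limma voom called 16. The difference also holds the change of kit between compartments.

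Of the subunits that passed, MAGT1, STT3B and RPN1 had the largest differences. The value was 2.92 ± 0.27 (adjusted p = 0.00472) for MAGT1, 2.62 ± 0.18 (adjusted p = 0.00277) for STT3B and 2.58 ± 0.27 for RPN1. Next among those that passed were RPN2, DDOST and STT3A at 1.90 ± 0.31, 1.81 ± 0.35 and 1.77 ± 0.33. OST4 and DAD1, which lay below 0 in both compartments, passed at 1.62 ± 0.31 and 1.50 ± 0.32 (adjusted p = 0.0409), with the lower value in the nucleus. TUSC3, at 0.61 ± 0.60, did not pass (adjusted p = 0.721), and KRTCAP2, OSTC and TMEM258 did not pass either.

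Among the trimming enzymes GANAB had the largest difference of the 43, 3.25 ± 0.33 (adjusted p = 0.00562), followed by UGGT1 at 2.30 ± 0.37, MAN1A1 at 2.07 ± 0.26, MGAT2 at 1.91 ± 0.31, PRKCSH at 1.75 ± 0.28 and MAN1A2 at 1.70 ± 0.23. UGGT2 was the member on the NLS side, at -1.42 ± 0.29 (adjusted p = 0.0327). The single ALG enzyme was ALG10B, at 2.09 ± 0.36 (adjusted p = 0.0207), and the single dolichol gene was NUS1, at 2.53 ± 0.33 (adjusted p = 0.00990). ALG10, at 1.10 ± 0.62, did not pass (adjusted p = 0.367), with the limit on its separate level given above.

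Paralogues can be set against each other within a library, where depth and scaling cancel. The ratio of STT3B to STT3A reads was 1.05 and 1.79 in OMM labelled, against 0.622 and 0.624 in OMM control. At NLS it was 1.59 and 1.69 in NLS labelled, against 1.44 and 1.33 in NLS control. The labelled libraries had the higher ratio at both sites, and the control ratios themselves differed between the OMM and NLS libraries. UGGT1 over UGGT2 was 24.1 and 14.8 in OMM labelled against 3.92 and 6.12 in OMM control, and 1.54 and 1.32 in NLS labelled against 4.69 and 4.85 in NLS control. For this pair both labelled libraries were above both controls at OMM and below both in the nucleus.

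MAGT1 over TUSC3 was 28.7 and 9.65 in OMM labelled against 5.33 and 8.49 in OMM control, and 2.15 and 2.43 in NLS labelled against 5.12 and 4.24 in NLS control. ALG10B over ALG10 was 5.38 and 3.75 in OMM labelled against 3.03 and 1.81 in OMM control, and 1.35 and 1.43 in NLS labelled against 1.34 and 1.72 in NLS control. The Golgi mannosidases differed less: MAN1A1 over MAN1A2 was 0.638 and 0.501 in OMM labelled against 0.621 and 0.422 in OMM control, and 0.302 and 0.313 in NLS labelled against 0.393 and 0.325 in NLS control. Groups overlapped for MAN1A1 over MAN1A2 at OMM and for ALG10B over ALG10 at NLS. With 2 libraries against 2 the smallest two-sided exact permutation p is 0.333, so no ratio could reach 0.05 by that test, and no other test was run on the ratios.

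**Figure D5:**
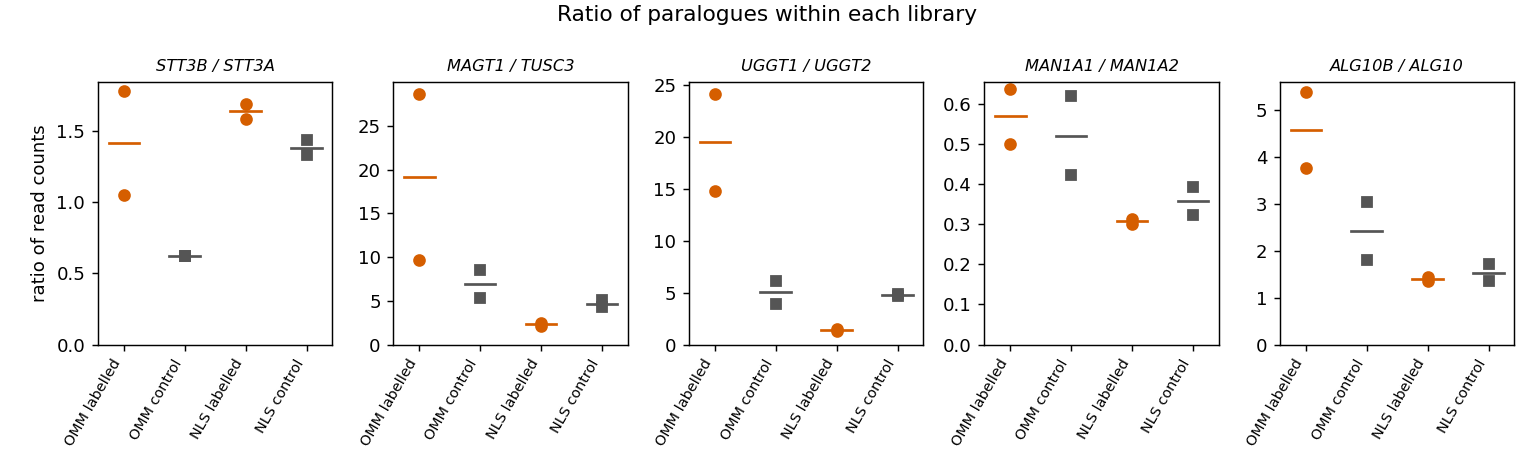
Ratio of read counts of 5 pairs of paralogues in each library (points; lines are means of 2 libraries; each panel starts at 0). UGGT1 over UGGT2 is 24.1 and 14.8 in OMM labelled against 3.92 and 6.12 in OMM control, and 1.54 and 1.32 in NLS labelled against 4.69 and 4.85 in NLS control.

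Levels between genes were compared per kilobase of annotated exon. On this scale DAD1 was the highest of the 43 in both control groups, at 127 CPM per kilobase in OMM control and 122 in NLS control, and ranked 9 in OMM labelled and 11 in NLS labelled. DPM1 ranked 1 in NLS labelled, at 62.1 CPM per kilobase, against 10 in NLS control. STT3B ranked 7 in OMM labelled, at 82.0 CPM per kilobase, against 13 in OMM control. MAGT1 ranked 5 in OMM labelled, at 138 CPM per kilobase, against 9 in OMM control.

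The 34 other N-glycosylation genes were followed for comparison. They include genes that make the sugar donors or carry them across membranes, and genes that read, trim, extend or remove the glycan. At OMM 1 was higher and 0 lower, with a median of 0.47 and 23 above 0. Over all genes tested at OMM 0.139% were called higher and 0.0554% lower, with a median of -0.00 and 49.9% above 0. The gene called higher among the 34 was CANX, calnexin, the membrane chaperone that binds the glycan with 1 glucose left. It had 5564 and 3938 CPM in OMM labelled against 1413 and 1288 CPM in OMM control (1.82 ± 0.20 log2, adjusted p = 0.0316). CANX thus joined STT3B as a gene of the pathway past the threshold. In the nucleus 18 fell and 6 rose, or 52.9% and 17.6%, against 39.8% and 19.4% of protein-coding genes, with a median of -0.41 that turns to 0.11 with library sizes alone.

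The lowest of these in the nucleus were CALR, the lumenal partner of calnexin, and GNPNAT1, an acetyltransferase of the donor UDP-N-acetylglucosamine. CALR had 292 and 221 CPM in NLS labelled against 914 and 931 CPM in NLS control (-1.84 ± 0.14 log2), and GNPNAT1 had 38.3 and 38.4 CPM in NLS labelled against 119 and 125 CPM in NLS control (-1.67 ± 0.11 log2). The highest were PMM2 and ENGASE. PMM2, a cytosolic mutase that makes mannose-1-phosphate, had 127 and 123 CPM in NLS labelled against 50.4 and 62.1 CPM in NLS control (1.15 ± 0.13 log2, adjusted p = 1.55e-04). ENGASE, a cytosolic enzyme that clips glycans off misfolded proteins, had 62.2 and 63.1 CPM in NLS labelled against 34.9 and 24.8 CPM in NLS control (1.07 ± 0.17 log2). In the difference between compartments 7 of the 34 passed on the OMM side and 1 on the NLS side, or 20.6% and 2.94%. Of protein-coding genes 10.5% and 1.49% passed, and of all genes 6.73% and 1.41%. The median was 0.97, against 0.40 over protein-coding genes.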

How the data were processed

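Builds GRCh38.p13 and hg38 are named by the submitters' processing notes, along with STAR, HTSeq, DESeq2, Trimmomatic, SAMtools and bedtools, with no version for any of them. The authors deposited whole-number read counts per gene, per the file headers. They also deposited a log2 fold change and a p-value per gene for labelled over control, used here only where named. DESeq2 with filtering tuned to 0.05 gave an adjusted p within 1% of that p for 100% of genes in both compartments, so the deposited p is taken as adjusted. The strand setting of the counting is not given in the sources used here. RNAs of the opposite strand share 42.24% of the exonic length of ALG10 and 38.97% of that of ALG12, so their reads may include those RNAs. Genes on the same strand share 18.43% of the exonic length of KRTCAP2 and 15.69% of that of DDOST. Other members also overlap annotated genes. The series description gives TRIzol (OMM) and Proteinase K (NLS) for the captured RNA, but RNeasy appears in every sample's protocol, and which was used is unsettled. Columns were matched to groups by name. A further 4 count columns and 2 comparison columns matched no sample and were not used. Of the identifiers, 58396 were found in GENCODE 29.

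The test was edgeR 4.0.16 (R 4.3.3; robust quasi-likelihood F test, two-sided, TMM factors, filterByExpr minimum count 10, prior count 0.125). Each compartment was fitted apart, and the difference came from a joint fit of all 8 libraries. Benjamini-Hochberg adjustment ran over every gene tested, with a threshold of 0.05. SE is the size of the log2 fold change over the square root of F. The script was tested on simulated data. DESeq2 1.42.0 and limma 3.58.1 were alternatives. Precision is limited by 2 libraries per group, and counts without molecular identifiers are not independent molecules.

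The members, lists and tests were chosen with earlier results of these data known. Per-library values are given for members past the threshold at OMM or in the difference, for the 2 lowest and 2 highest of each list at each site, and for 5 paralogue pairs. Of the other pathway genes, the 2 lowest and 2 highest called ones per site are named.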

Additional observations from a re-analysis of the deposited data

Results flagged for a closer look

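For 17 of the 43 members and 8 of the 34 other pathway genes the effect of labelling differed between the compartments by the interaction test of edgeR. Of all genes tested 6.73% passed on the OMM side and 1.41% on the NLS side (10.5% and 1.49% of protein-coding genes). The count of members depended on the fit, as given above. It fell whichever NLS library was left out, and so did the count over all genes. The measure is the difference of log2 fold changes, OMM minus NLS. Among the oligosaccharyltransferase subunits it was 1.77 for STT3A, 2.62 for STT3B, 2.58 for RPN1, 1.90 for RPN2, 1.81 for DDOST, 1.50 for DAD1, 1.62 for OST4 and 2.92 for MAGT1. Among the others of the 43 it was 2.09 for ALG10B, 2.53 for NUS1, 3.25 for GANAB, 1.75 for PRKCSH, 2.30 for UGGT1, -1.42 for UGGT2, 2.07 for MAN1A1, 1.70 for MAN1A2 and 1.91 for MGAT2. Of the other pathway genes named in the text, 3 are among these, and it was 2.48 for GNPNAT1, 2.34 for CALR and 3.43 for CANX. These 20 kept their sign in 14 alternative fits each, and passed the threshold in 7 of them (STT3A, DDOST, DAD1 and UGGT2) to 12. The kit changed with the compartment, and the part of the kit in these differences was not tested.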

How the results depend on the processing

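In the nucleus, library sizes alone in place of TMM gave 12 members higher and 15 lower, with medians of -0.87 for the oligosaccharyltransferase, 0.45 for ALG enzymes, -0.26 for dolichol genes, -0.062 for trimming enzymes and 0.11 for the other pathway genes. The signs of TUSC3 (0.040), ALG10 (0.17), ALG10B (0.059) and MAN1A2 (0.075) turned as well, and the median of all genes moved by the same construction, to 0.66. Leaving out 1 NLS library gave 6 to 7 members higher and 22 to 27 lower, medians from -0.13 to 0.090 for ALG enzymes, -0.83 to -0.67 for dolichol genes and -0.46 to -0.32 for the other genes. At OMM, members higher numbered 3 with library sizes alone, 8 with no filter, 12 with DESeq2 and 8 with limma voom, and members lower 2 with DESeq2 and 1 with limma voom. Over all genes the higher calls in those fits numbered 48, 321, 949 and 354, against 20 in the main fit. STT3B was called in all 9 alternatives at OMM. The median of the other genes at OMM was 0.53 with library sizes alone and 0.57 with limma voom. ALG12 at OMM was 0.060 and 0.68 under those 2 settings, and TUSC3 was -0.038 with limma voom. Leaving out 1 OMM library gave 4 to 6 members higher and 0 to 1 lower, medians from 0.056 to 0.58 for the oligosaccharyltransferase, 0.38 to 0.84 for ALG enzymes, -0.67 to -0.25 for dolichol genes, 0.48 to 1.08 for trimming enzymes and 0.23 to 0.58 for the other genes, and ranges at OMM of -0.27 to 0.49 for DOLPP1, -0.54 to 0.58 for TUSC3 and -0.92 to 2.46 for ALG12. For the difference between compartments, 9 members passed on the OMM side with DESeq2 size factors and 7 with library sizes alone. On the NLS side 0 passed with no filter, with limma voom and with own spreads, and 5 with DESeq2. Leaving out 1 library gave 0 to 20 on the OMM side and 0 to 2 on the NLS side, and -0.047 to 1.08 for TUSC3. The cause was not tested for the results that changed beyond the scaling itself.

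Same-numbered NLS libraries did not deviate together (correlation of deviations -0.03 over 20858 genes, 2 pairs). With the column number as a replicate block at NLS, 7 members were higher and 26 lower, 32 of the 33 called members stayed called, and over all genes 5075 were higher and 5696 lower. For OMM no paired analysis was possible because its columns share a single number between labelled and control libraries.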
